A study of Mus musculus with 10 samples.

Results

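The genes described here are 10 long RNA genes, Malat1, Neat1, H19, Kcnq1ot1, Meg3, Gas5, Snhg1, Snhg12, Snhg11 and Mir17hg, measured in tumour epithelial cells. They are a named list of 10 among the 51707 genes with a name in the files, and all 10 were among the 17495 genes that passed the filter on low counts. They were chosen by name, with their read counts and TPM in these same libraries and comparison already known, and the list sets no level, direction or threshold. The values between the groups are therefore a description, and each adjusted p is the one from the fit over all genes. Snhg11 is annotated as protein-coding in the annotation used for names, and the other 9 as long non-coding RNA, antisense or processed transcripts.

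Epithelial cells were sorted by flow cytometry from pancreatic ductal adenocarcinomas (PDAC) and sequenced in 10 libraries. The tumours grew in the pancreas of NSG mice, which lack lymphocytes and natural killer cells but keep myeloid cells, after T6-LOH organoids of the KPC model, a mouse model of this cancer, had been transplanted with pancreatic stellate cells, or PSCs, which are fibroblast precursors of that organ. In 5 libraries the PSCs were the control line labelled PSC4 ROSA (egfr), called Egfr WT PSC or WT PSC here, and in 5 they were the line labelled PSC4 EGFR KO B4, called Egfr KO PSC or KO PSC. All 10 libraries share the organoid line, the parental PSC line and the strain label C57BL/6J, and neither the age of the mice nor the sort markers are given in the sources used here. The knockout is in the transplanted PSCs and not in the sequenced cells. The label names 1 knockout line, so loss of Egfr and another property of that line cannot be told apart. Whether the libraries stand for separate mice is not given, and p-values then measure only the spread between these libraries, which may be technical. Replicate numbers follow the order of deposit, only name a library and pair none across the groups.

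Depth lay between 39534055 and 53816086 estimated reads in genes per library, and mitochondrial genes held between 1.85% and 4.51% of them. Egfr was at 39.8 to 75.0 CPM (counts scaled to library size by TMM) in the WT PSC group and at 52.2 to 76.7 CPM in the KO PSC group, which does not check the labels because the knockout was made in other cells. The 7 epithelial markers, Krt8, Krt18, Krt19, Epcam, Cdh1, Cldn4 and Sox9, were detected in every library and summed to 14489 to 15388 CPM and 12257 to 22902 CPM. The 10 fibroblast markers summed to 372.6 to 956.1 and 346.2 to 1265 CPM, the 10 macrophage markers to 274.3 to 467.1 and 223.8 to 335.5 CPM, and the 5 endothelial markers to 16.7 to 27.2 and 6.67 to 39.1 CPM. The 6 neuronal and glial markers summed to 25.5 to 74.6 and 8.88 to 26.3 CPM. Elavl4 among them was at 0 in 5 libraries and Sox10 in 8. In bulk samples such as these, fewer cells of a type and less RNA per cell cannot be told apart.

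Long non-coding RNAs act as RNA and not through a protein. Malat1 is a very abundant RNA of nuclear speckles, the stores of splicing factors, and Neat1 is the scaffold of paraspeckles, nuclear bodies that only its long form can build. H19, Kcnq1ot1 and Meg3 are imprinted, which means that they are transcribed from 1 parental chromosome: H19 and Meg3 from the maternal copy, and Kcnq1ot1 from the paternal copy, where it silences neighbouring genes in cis. Gas5 and the Snhg genes are hosts of small nucleolar RNAs (snoRNAs), which lie in their introns and guide chemical modification of ribosomal RNA. The spliced exons of such hosts often start with a run of pyrimidines, the terminal oligopyrimidine tract also found in ribosomal protein genes, and many are degraded by nonsense-mediated decay. Mir17hg is the primary transcript of the miR-17-92 microRNA cluster, a target of MYC that promotes growth in many cancers.

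The mature microRNAs cut from Mir17hg are shown because the host transcript, and not these products, is what the libraries measure. They are written 5′ to 3′ from RefSeq (build GRCm38.p6, chromosome 14, plus strand, between chr14:115043684-115043706 for the first and chr14:115044476-115044496 for the last), with the seed, bases 2 to 8, in capitals.
miR-17-5p: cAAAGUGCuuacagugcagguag
miR-20a-5p: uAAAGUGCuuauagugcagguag
miR-18a-5p: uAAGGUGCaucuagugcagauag
miR-19a-3p: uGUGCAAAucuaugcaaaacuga
miR-19b-3p: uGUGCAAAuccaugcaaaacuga
miR-92a-3p: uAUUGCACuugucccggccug
The seed AAAGUGC is shared by miR-17-5p and miR-20a-5p and the seed GUGCAAA by miR-19a-3p and miR-19b-3p, while miR-18a-5p and miR-92a-3p each have a seed of their own. H19 likewise carries a microRNA, in its first exon, printed from the same table (minus strand, chr7:142577112-142577133).
miR-675-5p: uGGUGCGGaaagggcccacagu

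For the snoRNA hosts, the 60 bases around the annotated transcription start are printed from RefSeq (GRCm38.p6, plus strand in all 4 genes), 30 on each side. They are shown because the exons of such hosts often start with a run of pyrimidines. Any relation of these runs to the levels across libraries was not tested. Capitals mark the longest run made only of C and T on the printed strand within 15 bases of the start. Of runs of equal length only the first is marked, as in Snhg11. Gas5 has a further RefSeq start that is not printed, whose longest run there is 3 bases.
Gas5, chr1:161035136-161035195: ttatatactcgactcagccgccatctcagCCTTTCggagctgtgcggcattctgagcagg
Snhg1, chr19:8723457-8723516: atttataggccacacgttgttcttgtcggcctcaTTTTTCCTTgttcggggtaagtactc
Snhg12, chr4:132308648-132308707: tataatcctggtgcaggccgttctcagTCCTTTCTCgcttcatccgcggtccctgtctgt
Snhg11, chr2:158375683-158375742: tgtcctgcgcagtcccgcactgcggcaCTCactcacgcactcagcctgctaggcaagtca
The runs are 9 bases long in Snhg1 and Snhg12, 6 in this Gas5 start and 3 in Snhg11. Over the 32851 windows of the table, 7.73% hold a run of at least 9 bases, 29.2% one of at least 6 and 88.5% one of at least 3. A run of these letters is a description of the window and does not show that the tract is used.

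The snoRNAs themselves are illustrated by Snord80, which lies in an intron of Gas5 (transcript ENSMUST00000083801 of GENCODE M21, 81 bases). Capitals mark the first TGATGA and the last CTGA, searched as exact letters on the transcript strand. They match the boxes C and D that bind the snoRNP proteins. Both words also occur, in lower case, between the marked ones. Of the 1507 snoRNA transcripts in that annotation, 24.0% hold TGATGA followed by CTGA.
Snord80: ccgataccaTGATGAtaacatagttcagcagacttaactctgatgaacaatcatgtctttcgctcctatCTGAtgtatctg
The files list 23 snoRNA genes inside Gas5 (9), Snhg1 (8), Snhg12 (4) and Snhg11 (2), and 9 microRNA genes inside Mir17hg (6), Meg3 (2) and H19 (1). All of these were listed at 0 reads in every library. A count of 0 allows up to 3 counts, which is 0.0557 to 0.0759 CPM depending on the library, counting error only. The values below are therefore those of the host transcripts and say nothing of the small RNAs.

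Between the groups, 8 of the 10 genes had a higher fitted level in the KO PSC group and 2, Malat1 and H19, a lower one, with a median log2 fold change of 0.26. Over all genes tested the median was 0.00 and 8762 genes were higher and 8733 lower. The median of the 10 was 0.09 without KO PSC replicate 3. Kcnq1ot1 counts among the 8 with a log2 fold change of only 0.0033. With no filter on low counts, 7 of the 10 were higher. The count was also 7 with an offset for transcript length, and with the number in the file names as a factor. None of the 10 passed the quasi-likelihood test of edgeR, adjusted over all genes by Benjamini-Hochberg (adjusted p from 0.304 to 0.998), and the background for that call was 0% of 17495 genes. At an unadjusted p under 0.05 there were 2, Snhg11 and Meg3, against 8.15% of all genes in either direction, 3.55% in the higher direction and 4.6% in the lower. limma voom called 0 of the 10, against 0.0171% of all genes. DESeq2 called 1, Snhg11, against 0.742% of the 17118 genes to which it gave an adjusted p, or 0.245% in the higher direction. The libraries of the groups did not overlap in 1 gene, again Snhg11, against 1.52% of all genes, or 0.777% with the KO PSC libraries higher.

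**Figure D1:**
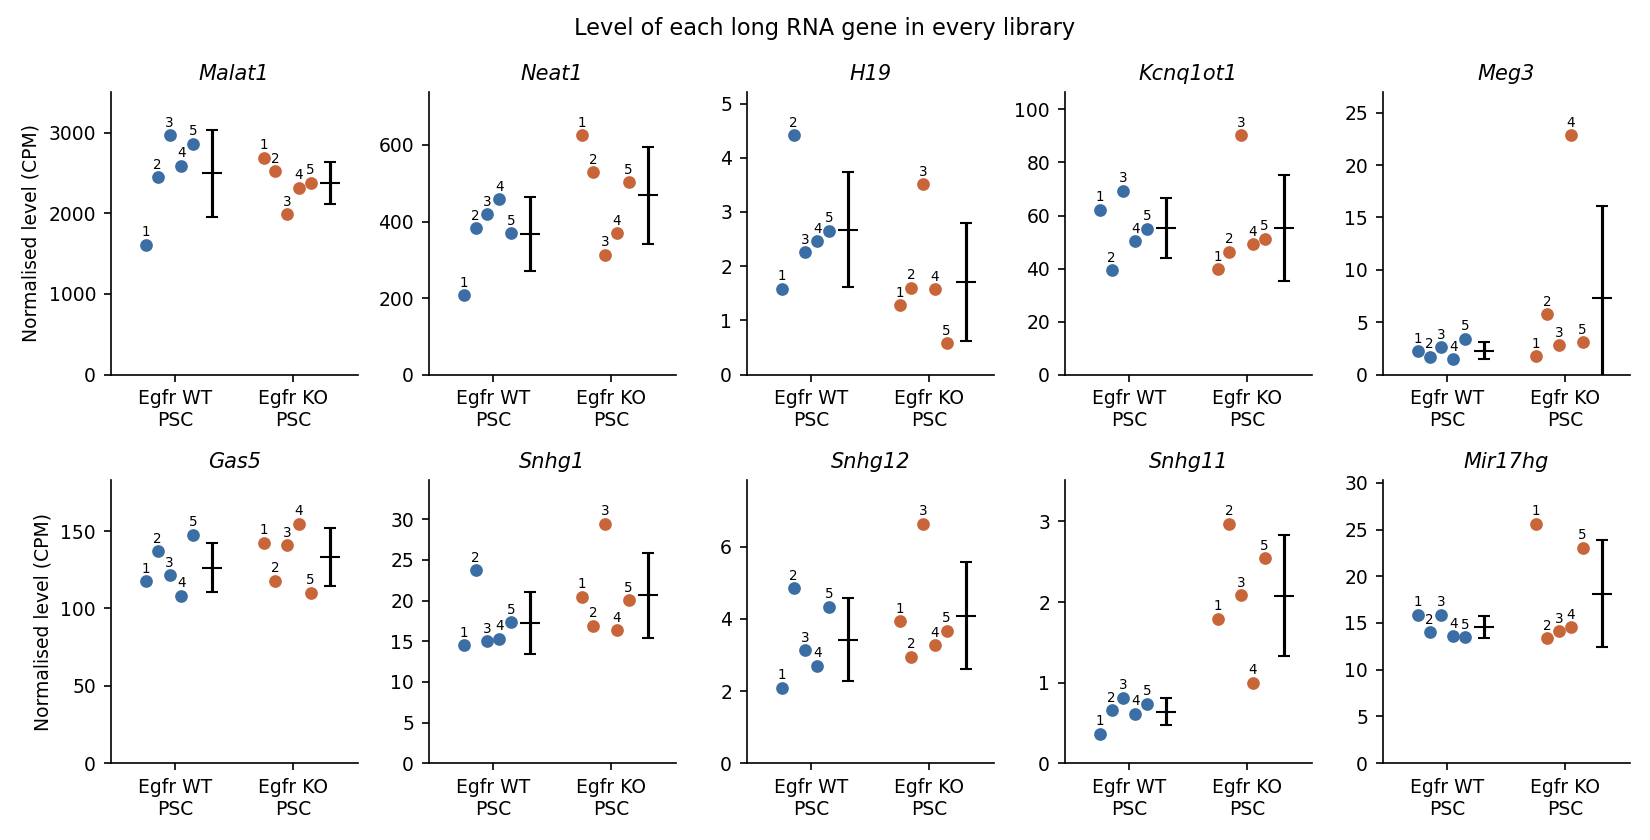
Normalised level (CPM, linear axis from 0) of each gene in every library, with the replicate number beside each point. Bars are mean ± SD of 5 libraries, and the bar of Meg3 in the KO PSC group is drawn only above 0. All 5 Snhg11 values in the KO PSC group (1.00 to 2.97 CPM) lie above all 5 in the WT PSC group (0.367 to 0.812 CPM), and Meg3 has 1 high library at 22.9 CPM.

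Malat1 was the most abundant of these RNAs. It was at 1611, 2450, 2970, 2589 and 2863 CPM in WT PSC replicates 1 to 5, and at 2691, 2519, 1986, 2317 and 2381 CPM in KO PSC replicates 1 to 5. The lowest value belonged to WT PSC replicate 1, and all 5 KO PSC values lay inside the WT PSC range. The means were 2497 ± 537 and 2379 ± 263 CPM (SD, n = 5 each), with a log2 fold change of -0.07 (95% confidence interval -0.42 to 0.28, edgeR adjusted p = 0.933), and -0.19 without WT PSC replicate 1.

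Malat1 reads were divided between a transcript of 485 bases, ENSMUST00000173499, and one of 6988 bases, ENSMUST00000172812. The 485-base transcript held 57.6 ± 2.17% of the reads in the WT PSC group and 55.2 ± 0.928% in the KO PSC group. Since TPM, a level scaled to transcript length and library size, divides by length, the same transcript held 96.4% and 96.1% of the TPM. Its sequence is nearly contained in the long transcript: in GENCODE M21, 95.7% of its 25-base words occur there. Few reads of the short transcript can therefore be told from the long one. The reads that separate the pair come mainly from the rest of the long transcript. The share of reads was tested by an exact permutation of the libraries (two-sided p = 0.0635, adjusted p = 0.254 over the 8 genes with several transcripts). Neither transcript passed the test over all 46220 transcripts, with log2 fold changes of -0.16 and -0.02. A gene on the opposite strand, Gm37376, overlaps Malat1 and held 460.7 to 2560 reads, and since the strand setting is not given, reads of overlapping genes on opposite strands may not have been told apart.

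Neat1 was the second most abundant by read count. It was at 208, 383, 419, 458 and 369 CPM in the WT PSC group and at 626, 530, 313, 370 and 503 CPM in the KO PSC group, in the order of the replicates. KO PSC replicates 1, 2 and 5 lay above every WT PSC library, and replicates 3 and 4 lay among them. The means were 368 ± 95.6 and 468 ± 126 CPM, with a log2 fold change of 0.35 (95% confidence interval -0.14 to 0.84, edgeR adjusted p = 0.717). It was 0.16 with an offset for the effective transcript length of each library, 0.20 without WT PSC replicate 1 and 0.23 without KO PSC replicate 1.

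Neat1 has a short and a long form that share their start. The short form, ENSMUST00000174287 of 3004 bases, was at 264 ± 66.9 and 276 ± 42.2 CPM, a log2 fold change of 0.07. The long form, ENSMUST00000173672 of 21163 bases, which is the form that scaffolds paraspeckles, was at 57.8, 108, 84.5, 150.4 and 110.5 CPM in the WT PSC group and at 270.3, 222, 94.9, 105 and 208 CPM in the KO PSC group. The same replicates 1, 2 and 5 of Egfr KO PSC were high, and replicates 3 and 4 lay inside the WT PSC range. Its log2 fold change was 0.82 (SE 0.33, edgeR adjusted p = 0.972 over all transcripts). It was 1 of 3 transcripts at an unadjusted p under 0.05 among the 35 transcripts of these genes that passed the filter, against 5.14% of all transcripts. All 3 were higher in the KO PSC group, against 2.41% of all transcripts, and 0 passed after adjustment (background 0%).

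As a share of Neat1 reads, the long form held 27.3%, 27.5%, 20.5%, 32.8% and 29.0% in the WT PSC group and 44.3%, 42.1%, 29.9%, 28.3% and 42.0% in the KO PSC group. The 3 highest libraries, KO PSC replicates 1, 2 and 5, were between 42.0% and 44.3%, and the other 7 were between 20.5% and 32.8%. The means were 27.4 ± 4.44% and 37.3 ± 7.59% (exact two-sided permutation p = 0.0556, unadjusted). The share of the short form, the main transcript by reads, was 71.2 ± 4.42% and 61.0 ± 7.59% (exact permutation p = 0.0556, adjusted p = 0.254 over the 8 genes). Measured on TPM it was 89.6 ± 1.24% and 85.1 ± 3.54% (exact permutation p = 0.0238, adjusted p = 0.19). In GENCODE M21, 99.2% of the 25-base words of the short form are also in the long form, so the reads that separate them come from the rest of the long form.

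**Figure D2:**
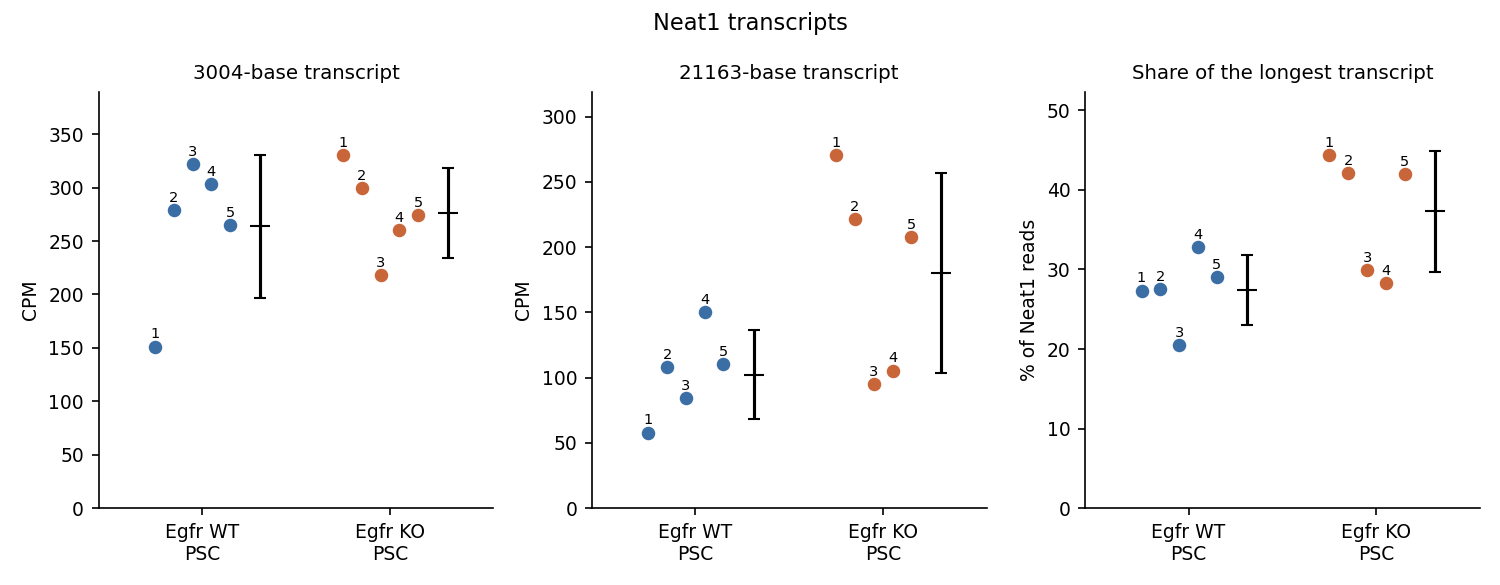
Level of the short (3004 bases, left) and long (21163 bases, middle) Neat1 transcript in CPM, and the share of Neat1 reads held by the long one in percent (right), for every library with its replicate number. Bars are mean ± SD of 5 libraries. KO PSC replicates 1, 2 and 5 have 42.0% to 44.3% of the reads in the long form, while the groups overlap in the short form.

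Among the imprinted RNAs, H19, an RNA of fetal tissue and of many tumours, was scarce. It was at 1.58, 4.42, 2.26, 2.46 and 2.66 CPM in the WT PSC group and at 1.29, 1.602, 3.52, 1.57 and 0.584 CPM in the KO PSC group, from 25 to 234 reads per library. KO PSC replicates 1, 4 and 5 lay below every WT PSC library, and replicate 3 lay second highest of all 10. The log2 fold change was -0.65 (SE 0.42, 95% confidence interval -1.56 to 0.27, edgeR adjusted p = 0.717). Without KO PSC replicate 3 it was -1.08 and without WT PSC replicate 2 it was -0.38. It was 0.15, on the other side of 0, when the macrophage marker score entered the fit as a covariate. That score was lower in KO PSC replicates 1, 4 and 5 than in every WT PSC library. KO PSC replicates 2 and 3 lay inside the WT PSC range. The score thus went largely with the group, and the fit can tell score from group only in part. The macrophage markers were lower in 7 of 10 genes (median log2 fold change -1.19), C1qc among them, which was at 0 in 1 library. Their part in the H19 values was not tested further. The main transcript, ENSMUST00000136359 of 2296 bases, held 85.7 ± 12.5% and 93.1 ± 10.8% of the reads.

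Kcnq1ot1 is listed as 1 transcript, ENSMUST00000185789, of 93092 bases. Its counts were at 62.2, 39.5, 69.3, 50.3 and 55.04 CPM in the WT PSC group and at 39.9, 46.3, 90.3, 49.1 and 51.3 CPM in the KO PSC group. KO PSC replicate 3 was the highest of all libraries and the other 4 of that group lay inside the WT PSC range. The means were 55.3 ± 11.4 and 55.4 ± 19.99 CPM, with a log2 fold change of 0.00 (95% confidence interval -0.48 to 0.48, edgeR adjusted p = 0.998). The sign of so small a value changed with the fit, and without KO PSC replicate 3 the log2 fold change was -0.23. The potassium channel gene Kcnq1 lies on the opposite strand over Kcnq1ot1, and unspliced Kcnq1 reads may not have been told from Kcnq1ot1 reads. Kcnq1 was at 17.3 ± 3.19 and 13.2 ± 2.67 CPM (log2 fold change -0.39, edgeR adjusted p = 0.601), and it was lowest, at 10.9 CPM, in the replicate in which Kcnq1ot1 was highest.

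Meg3, a growth-restraining RNA of the Dlk1-Dio3 domain, had the widest spread of the 10. Its values were 2.23, 1.72, 2.63, 1.49 and 3.44 CPM in the WT PSC group and 1.77, 5.75, 2.85, 22.9 and 3.11 CPM in the KO PSC group. KO PSC replicate 4 stood far above every other library, replicate 2 was next, and the other 3 of that group overlapped the WT PSC range. The fitted log2 fold change was 1.66 (SE 0.62, 95% confidence interval 0.30 to 3.02, edgeR adjusted p = 0.515). Without KO PSC replicate 4 it was 0.55 (edgeR adjusted p = 0.886). DESeq2 gave an adjusted p of 0.168 with all 10 libraries.

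The neighbours of Meg3 in the same transcription unit were high in the same library. Rian, the next RNA of the domain, which carries snoRNAs, was at 3.14 CPM in KO PSC replicate 4 and at 0.0701 to 0.927 CPM in the other 9 libraries. Mirg, a microRNA host further along, was at 0.548 CPM there and at 0.0234 to 0.185 CPM elsewhere, from 1 to 23 reads. Of the protein-coding genes of the domain that are transcribed from the paternal copy, Dlk1 and Rtl1 had at most 5 and 3 reads in any library. Dio3, a further one, passed the filter on low counts and is given below. In that same replicate the 6 acinar markers had their highest sum of all 10 libraries (414.5 CPM, against 87.0 to 352 CPM in the others) and the 10 fibroblast markers their lowest (346.2 CPM). Their part in the Meg3 values was not tested. The log2 fold change of Meg3 was 0.51 with the fibroblast score and 0.93 with the macrophage score as a covariate. KO PSC replicate 4 also had the lowest fibroblast score (2.86), so the fit with that score cannot tell the score from this library. The fit with the macrophage score has the limit given for H19. The main Meg3 transcript by reads was ENSMUST00000129245 of 1531 bases (66.1 ± 20.9% and 58.8 ± 21.8%). Its share was 48.9% and 39.5% in WT PSC replicates 3 and 4, and 38.8% and 37.2% in KO PSC replicates 2 and 4. In KO PSC replicate 4 it had 357 reads and ENSMUST00000126289 of 1818 bases had 441.

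Gas5, which accumulates when growth stops and translation slows, was the steadiest of the 10. It was at 117, 137, 122, 108 and 148 CPM in the WT PSC group and at 142, 118, 141, 155 and 110 CPM in the KO PSC group. The ranges overlapped from 110 to 148 CPM, and the coefficient of variation over all 10 libraries was 12.8%, lower than in all but 16.3% of the genes tested. The means were 126 ± 15.8 and 133 ± 18.5 CPM, with a log2 fold change of 0.08 (95% confidence interval -0.19 to 0.34, edgeR adjusted p = 0.894). As a fold the interval spans 0.877 to 1.27, and the log2 fold change was between 0.02 and 0.14 without single libraries, lowest without KO PSC replicate 4 and highest without KO PSC replicate 5.

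Gas5 is spliced into many forms, and 19 of its 25 listed transcripts had reads. The main one, ENSMUST00000162558 of 505 bases, held 42.9 ± 1.95% and 40.6 ± 5.22% of the reads, and ENSMUST00000159706 of 566 bases was next. Transcripts annotated with a retained intron together held 26.7 ± 3.60% and 26.8 ± 5.64% (exact two-sided permutation p = 0.937). On the opposite strand, Zbtb37 overlaps Gas5 and held 377.6 to 554.7 reads per library, against 4570 to 7307 for Gas5.

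Snhg1, host of a cluster of C/D snoRNAs, was at 14.6, 23.8, 15.0, 15.3 and 17.4 CPM in the WT PSC group and at 20.5, 16.9, 29.5, 16.4 and 20.1 CPM in the KO PSC group. KO PSC replicate 3 and WT PSC replicate 2 were the highest libraries, and the groups overlapped. The log2 fold change was 0.26 (95% confidence interval -0.15 to 0.68, edgeR adjusted p = 0.744). It was 0.11 without KO PSC replicate 3 and 0.42 without WT PSC replicate 2. One transcript, ENSMUST00000206155 of 647 bases, held 79.5 ± 5.61% and 76.0 ± 5.41% of its reads, and retained-intron transcripts held 13.9 ± 4.83% and 16.5 ± 2.70% (exact permutation p = 0.325).

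Snhg12 was less abundant than Snhg1, with 91.1 to 287 reads per library. Its values were 2.09, 4.85, 3.13, 2.70 and 4.34 CPM in the WT PSC group and 3.94, 2.95, 6.64, 3.26 and 3.67 CPM in the KO PSC group. The highest libraries were again KO PSC replicate 3 and WT PSC replicate 2. The log2 fold change was 0.26 (95% confidence interval -0.37 to 0.89, edgeR adjusted p = 0.847). It was 0.02 without KO PSC replicate 3, 0.12 without WT PSC replicate 1 and 0.42 without WT PSC replicate 2. The main transcript, ENSMUST00000153474 of 673 bases, held 63.4 ± 5.36% and 54.2 ± 12.1% of the reads (exact permutation p = 0.151, adjusted p = 0.402).

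Snhg11, a snoRNA host with its best known expression in neurons, had the largest fitted difference of the 10. In the WT PSC group it was at 0.367, 0.661, 0.812, 0.616 and 0.739 CPM, and in the KO PSC group at 1.79, 2.97, 2.08, 1.00 and 2.55 CPM. Every KO PSC library lay above every WT PSC library. The counts behind this were small, 16.1 to 41.3 reads in the WT PSC group and 42.2 to 154 in the KO PSC group. The level was 3.24-fold higher (95% confidence interval 1.99 to 5.28), a log2 fold change of 1.70 (SE 0.32). The unadjusted edgeR p was 0.000206, the ninth lowest of all genes, and the adjusted p was 0.304, so the gene did not pass the main test.

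DESeq2 called Snhg11 at an adjusted p of 0.000455, with a log2 fold change of 1.71. Over the alternatives the log2 fold change stayed between 1.54 and 1.98, with adjusted p from 0.000455 to 1.00. Leaving out single libraries gave 1.54 to 1.87. On the per-length scale the ranges overlapped, at 0.0976 to 0.526 TPM in the WT PSC group and 0.403 to 1.27 TPM in the KO PSC group. Most reads were from ENSMUST00000109488 of 5864 bases (83.4 ± 13.1% and 81.6 ± 15.0% of reads), whose own log2 fold change was 1.67 (edgeR adjusted p = 0.94 over all transcripts). None of the 4 neuronal and glial markers tested passed the edgeR test. DESeq2 called 1 of them, lower in the KO PSC group, against 0.742% of all genes in either direction. The 6 on the list summed to 25.5 to 74.6 CPM in the WT PSC group and 8.88 to 26.3 CPM in the KO PSC group.

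Mir17hg, the host of the microRNAs printed above, is listed as 1 transcript of 3536 bases, ENSMUST00000134140. It was at 15.9, 14.0, 15.9, 13.6 and 13.5 CPM in the WT PSC group and at 25.6, 13.4, 14.1, 14.6 and 23.0 CPM in the KO PSC group. KO PSC replicates 1 and 5 were high, and the other 8 libraries lay between 13.4 and 15.9 CPM. The means were 14.6 ± 1.22 and 18.1 ± 5.74 CPM, with a log2 fold change of 0.32 (95% confidence interval -0.11 to 0.74, edgeR adjusted p = 0.708). Without KO PSC replicate 1 it was 0.16, and with the macrophage score as a covariate 0.09. The latter fit can tell score from group only in part, as given for H19.

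**Figure D3:**
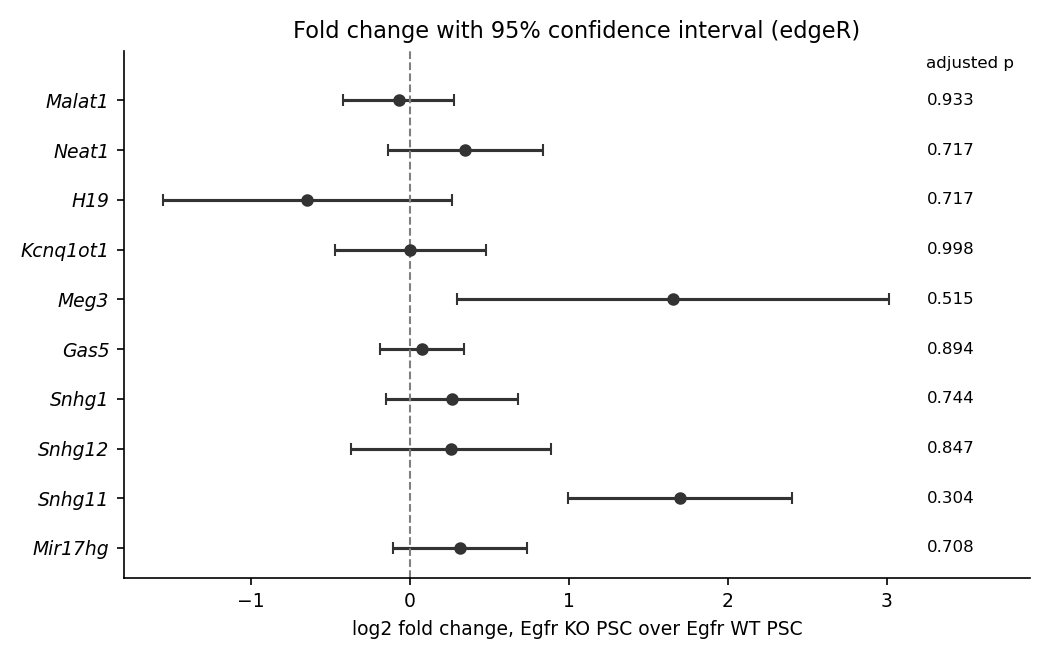
Fitted log2 fold change of each gene (Egfr KO PSC over Egfr WT PSC, n = 5 each) with its 95% confidence interval, and the edgeR p adjusted over all genes at the right. The intervals of Snhg11 (0.99 to 2.40) and Meg3 (0.30 to 3.02) lie above 0 before adjustment for the number of genes, and the other 8 include 0.

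Compared per length, in TPM over all 10 libraries, the genes spanned a wide range. Malat1 (5706 ± 956 TPM, the twelfth highest of all genes) was followed by Gas5 (396 ± 46.2), Neat1 (151 ± 33.0), Snhg1 (46.8 ± 12.2) and Snhg12 (8.20 ± 2.54 TPM). The ranges of these neighbours did not overlap, and each order held in all 10 libraries. The place of Malat1 rests on its 485-base transcript: the 6988-base transcript alone had a mean of 213 TPM, between Gas5 and Neat1. Below Snhg12 came Mir17hg (6.66 ± 1.63), Meg3 (4.30 ± 5.83), H19 (1.63 ± 0.871), Kcnq1ot1 (0.824 ± 0.251) and Snhg11 (0.516 ± 0.384 TPM). Each of these overlapped with the next, with the order held in 7 to 9 of the 10 libraries. By reads Kcnq1ot1 stood above all but Malat1, Neat1 and Gas5, and per length, over 93092 bases, above Snhg11 alone.

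**Figure D4:**
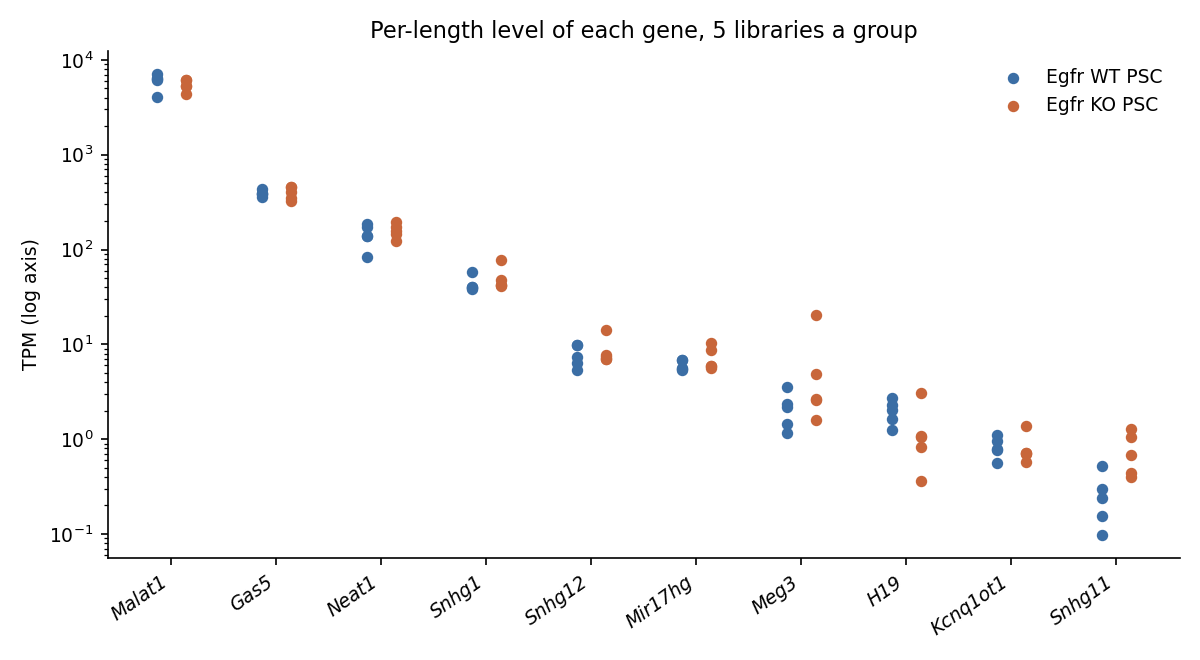
Level per length (TPM, log axis) of each gene, ordered by the mean over all libraries, with 5 points per group. The 4 highest genes have separate ranges (the lowest Snhg1 library, at 38.5 TPM, is above the highest Snhg12 library, at 14.2 TPM), and from Snhg12 downward neighbouring ranges overlap.

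Of the 45 pairs among the 10 genes, 25 correlated positively and 20 negatively on log2 CPM, and 1 pair passed a permutation test after Benjamini-Hochberg adjustment over the 45. That pair was Snhg1 and Snhg12 (Pearson r = 0.91, permutation p = 0.00013, adjusted p = 0.00585; Spearman rho = 0.90, permutation p = 0.00083, adjusted p = 0.0373; n = 10). Without the 2 libraries farthest from the median of Snhg1, WT PSC replicate 2 and KO PSC replicate 3, r was 0.75. It was 0.84 within Egfr WT PSC, 0.98 within Egfr KO PSC, and 0.96 within the 3 numbers that the deposited file names carry, whose meaning the labels do not give.

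The nuclear RNAs Malat1 and Neat1, which are neighbours in the genome, had r = 0.75 (permutation p = 0.0161, adjusted p = 0.301), and r was 0.91 within the WT PSC group and 0.94 within the KO PSC group. Without WT PSC replicate 1 and KO PSC replicate 3 it was -0.00, so the pooled relation rests on those libraries. H19 and Mir17hg had r = -0.71 (permutation p = 0.0201, adjusted p = 0.301). Gas5 and Snhg12 had r = 0.56 (permutation p = 0.0891, adjusted p = 0.764).

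**Figure D5:**
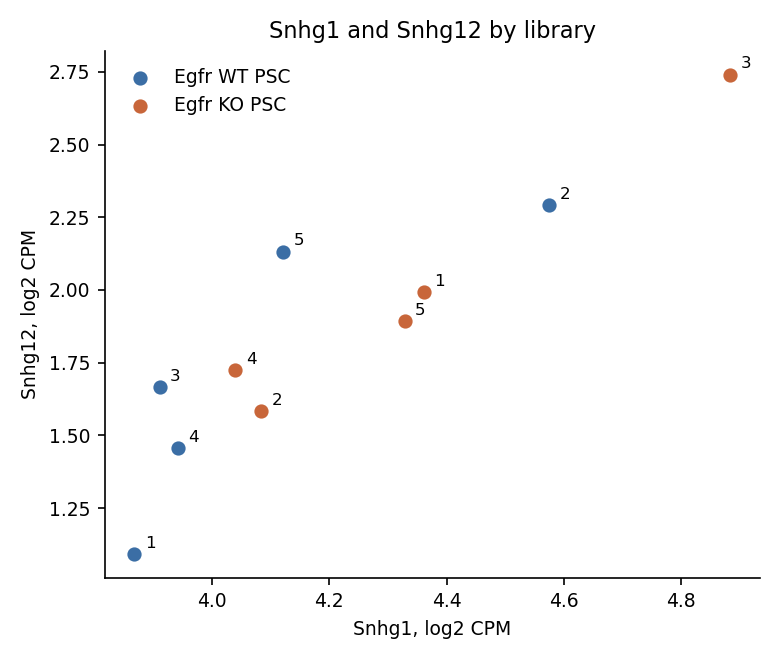
Snhg1 against Snhg12, both in log2 CPM, 1 point per library with its replicate number. KO PSC replicate 3 and WT PSC replicate 2 are highest for both genes, and WT PSC replicate 1 is lowest for both (r = 0.91 over 10 libraries).

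The genes most like each RNA were taken by Pearson r of log2 CPM over the 10 libraries among 10197 genes of at least 5 CPM, as a description. For Snhg1 they included Tgm1 (r = 0.92) and Nr1d2 (0.91). For Gas5 they were Zfp592 (0.94), the chromatin remodeller gene Ino80 (0.90) and C230062I16Rik (0.90). For Neat1 they were the sodium channel gene Scn8a (0.94), the syntaxin gene Stx1a (0.92) and Trim15 (0.91). For Malat1 they were Gnptg (0.91), Idnk (0.90) and the kinase gene Mapk13 (0.89). For Kcnq1ot1 they were Ywhah (0.87), Ppwd1 (0.86) and the Hedgehog receptor gene Ptch1 (0.86), and for Mir17hg Zfp207 (0.93), Aste1 (0.93) and Sod2 (0.91), a mitochondrial superoxide dismutase gene. These are the top of a search over many genes with 10 libraries, and no test is given.

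Other non-coding snoRNA hosts lay mostly on the same side as Snhg1, Snhg11 and Snhg12. Of 17 names 15 were matched and tested: 13 were higher and 2 lower in the KO PSC group, with a median log2 fold change of 0.25. Over all genes the median was 0.00 and 50.1% were higher. None of the 15 passed the edgeR test, against 0% of all genes, and 0 had an unadjusted p under 0.05, against 8.15%. The 4 of lowest p were Zfas1 (9.89 ± 2.53 and 13.6 ± 3.57 CPM), Snhg17 (14.6 ± 3.35 and 18.7 ± 2.88 CPM), Snhg15 (10.0 ± 1.80 and 12.6 ± 2.69 CPM) and Snhg9 (1.23 ± 0.523 and 1.82 ± 0.430 CPM), with edgeR adjusted p of 0.623 or more. Snhg18 and Epb41l4aos were the 2 lower ones. With the effective length offset the median was 0.21, and without single libraries 0.19 to 0.33.

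Protein-coding genes that host snoRNAs, most of them ribosomal protein genes, showed smaller differences. Of 27 tested, 23 were higher and 4 lower (median log2 fold change 0.10), and 1 had an unadjusted edgeR p under 0.05, against 8.15% of all genes. That gene was Rpl5 (89.7 ± 10.6 and 109 ± 5.73 CPM, log2 fold change 0.28, adjusted p = 0.499). Rpl30 (273 ± 45 and 330 ± 52.6 CPM) and Rpl21 (420 ± 66.0 and 482 ± 53.2 CPM) were higher and Rps2 (364 ± 72.5 and 266 ± 109 CPM) lower. Ribosomal protein genes share sequence with processed copies, so their separate counts are uncertain.

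Of the snoRNP core proteins and assembly factors, 6 of 10 were higher and 4 lower (median log2 fold change 0.01). These counts turned on the fit: 10 were higher with the macrophage score as a covariate, 8 with the fibroblast score and 3 without KO PSC replicate 3. Nhp2, a subunit of H/ACA particles, had the lowest p (109 ± 17.2 and 138 ± 21.9 CPM, edgeR adjusted p = 0.554), followed by Nop10, the methyltransferase gene Fbl and Nop56. Of the nonsense-mediated decay factors, 4 of 10 were higher and 6 lower (median -0.03), with Smg9, a regulator of the SMG1 kinase, at 34.7 ± 1.12 and 42.6 ± 5.37 CPM (edgeR adjusted p = 0.495), and Upf3a, Smg5 and Upf3b next.

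Among the paraspeckle proteins, the partners of Neat1, 9 of 15 were higher and 6 lower (median log2 fold change 0.03), with 12 higher with the macrophage score and 13 without WT PSC replicate 2 or without KO PSC replicate 5. Hnrnph3 was lower without overlap of the groups (1.52% of all genes do not overlap, in either direction), at 26.6 ± 3.13 and 20.2 ± 1.96 CPM (log2 fold change -0.40, edgeR adjusted p = 0.44), while Tardbp, Ewsr1 and Hnrnpk were higher by 0.13 to 0.19 on the log2 scale. Of the nuclear speckle proteins, the companions of Malat1, 6 of 13 were higher and 7 lower (median -0.02), or 11 and 2 with the fibroblast score and 10 and 3 without WT PSC replicate 5. The splicing factor genes Srsf3, Srsf2 and Srsf5 had log2 fold changes of 0.20, 0.29 and 0.21 and Acin1 one of -0.11. No gene of these lists passed the edgeR test.

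Of the 16 imprinted genes beside H19, Kcnq1ot1 and Meg3, 13 were tested, 8 higher and 5 lower (median log2 fold change 0.04), none past the edgeR test and 3 at an unadjusted p under 0.05, against 8.15% of all genes. Ascl2, a transcription factor gene of the Kcnq1ot1 domain, was at 1.46 ± 0.518 and 0.500 ± 0.233 CPM (log2 fold change -1.53, edgeR adjusted p = 0.396). It was called by DESeq2 (adjusted p = 0.0285), against 0.742% of all genes with a DESeq2 adjusted p. Phlda2, a growth regulator silenced by Kcnq1ot1 on the paternal copy, was at 16.6 ± 2.35 and 23.8 ± 10.3 CPM, and Dio3, at the far end of the Meg3 domain, at 1.09 ± 0.328 and 0.612 ± 0.283 CPM. Igf2, the neighbour of H19, had 8 to 64 reads and a log2 fold change of 0.03, and is named outside the rule for named genes, as are Rian, Mirg, Dlk1 and Rtl1. Of 15 imprinted genes elsewhere, 13 were tested, 6 higher and 7 lower (median -0.02). Plagl1, a zinc finger gene, was at 30.4 ± 3.59 and 20.5 ± 2.99 CPM with no overlap (log2 fold change -0.57, edgeR adjusted p = 0.366, DESeq2 adjusted p = 0.019). Of all genes, 1.52% did not overlap in either direction and DESeq2 called 0.742%. Igf2r, Grb10 and Sgce were lower with edgeR adjusted p of 0.67 or more.

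Of 21 other long non-coding RNA names, 20 were matched and 14 tested, 10 higher and 4 lower (median log2 fold change 0.07). None had an unadjusted edgeR p under 0.05, against 8.15% of all genes. With limma voom 7 were higher and 7 lower. Oip5os1, listed as 1700020I14Rik, was at 53.7 ± 4.43 and 65.4 ± 12.8 CPM, and Trp53cor1, Ftx and Crnde followed with edgeR adjusted p of 0.736 or more.

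For Mir17hg, the regulators and reported targets were counted in the same way. Of the 7 MYC and E2F genes, 3 were higher and 4 lower (median log2 fold change -0.07). Myc was at 378 ± 42.3 and 501 ± 96.5 CPM (log2 fold change 0.40, edgeR adjusted p = 0.495) and Mycn at 12.4 ± 7.15 and 5.06 ± 2.89 CPM (log2 fold change -1.29, edgeR adjusted p = 0.515). Both had an unadjusted edgeR p under 0.05, against 8.15% of all genes, and E2f3 and Mycl were next. Of 8 reported targets of the miR-17-92 microRNAs, 5 were higher and 3 lower (median 0.06). The TGF-beta receptor gene Tgfbr2 was at 84.4 ± 9.46 and 65.6 ± 12.1 CPM (log2 fold change -0.36, edgeR adjusted p = 0.51), the cell cycle inhibitor gene Cdkn1a at 151 ± 24.2 and 189 ± 45.3 CPM, and Ccn2 at 35.3 ± 5.90 and 46.3 ± 14.9 CPM.

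Markers of other cells differed in fitted level between the groups. In the KO PSC group, 7 of 10 fibroblast markers were lower (median log2 fold change -0.48), 7 of 10 macrophage markers (median -1.19) and 5 of 5 endothelial markers (median -0.28), and none passed the edgeR test. At an unadjusted edgeR p under 0.05 there were 7 of the macrophage and 3 of the fibroblast markers, against 8.15% of all genes. DESeq2 called 1 fibroblast marker and 0 macrophage markers, against 0.742% of all genes. The macrophage median was -0.69 without WT PSC replicate 2, and -0.20 over the 6 markers kept at a minimum count of 50. The endothelial median was -0.05 without KO PSC replicate 1 and -1.02 without KO PSC replicate 3. All 10 fibroblast markers were lower without KO PSC replicate 1. Acinar markers were higher in 4 of 6 and endocrine markers in 5 of 8 tested. With the macrophage score as a covariate 9 of the 10 RNAs were higher and 1 lower, and with the fibroblast score 8 were higher and 2 lower. Under these covariates the log2 fold change of Snhg11 was 1.98 and 1.66, and those of Snhg1 and Snhg12 were 0.60 and 0.65 with the macrophage score and 0.44 and 0.52 with the fibroblast score. Since the macrophage score went largely with the group, the values with that score are no clean adjustment for macrophages.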

How the data were processed

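The authors deposited 1 transcript quantification per library, with an estimated count and a TPM value for each of 147828 transcripts. Per the submitters' processing notes these came from Salmon 1.9.0 and a GRCm39 reference, while the sources used here do not give the annotation release, strand setting or read length. Libraries were made with a low-input kit with PCR cycles set by input, per the labels' protocols, which mention no molecular identifiers, so PCR copies may count as reads.

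Transcripts were assigned to genes by identifier with GENCODE M21 (92.7% matched, holding 98.1% to 98.7% of each library's reads). That annotation is of another build and gave names, transcript types, gene overlaps and the snoRNA sequence, but no coordinates. Gene sums of the deposited estimated counts were rounded to whole numbers. The deposited TPM values were summed per gene and used only for levels and shares. The comparison used edgeR 4.0.16 (R 4.3.3) with TMM, a minimum count of 10, no covariate, and Benjamini-Hochberg adjustment over 17495 genes at 0.05, and the script was tested on simulated data. Alternatives were DESeq2 1.42.0, voom of limma 3.58.1, other scalings and filters, a length offset, covariates and leaving out each library. Marker scores are mean log2 CPM of the fibroblast or macrophage markers. The macrophage score went largely with the group, so every fit with it can tell score from group only in part. The uncertainty of dividing reads between transcripts is not in any test.

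The members and gene lists were chosen with earlier results of these data known. Named are the 10 genes, up to 4 genes of lowest p from each list, and the 3 genes most like each RNA of at least 5 CPM; exceptions are stated. Of the list names, Snhg4, Snhg7 and Terc were unmatched and are not analysed here. Some genes that the rule names are not reported here.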

Additional observations from a re-analysis of the deposited data

Results flagged for a closer look

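In 3 of the 20 groups of 5 CPM values, and in 3 of 36 groups when transcript shares are included, 1 library stood apart from the other 4 by Dixon's 95% criterion, which flags about 1 group in 20 by chance. Meg3 was at 22.9 CPM in KO PSC replicate 4, against 1.77 to 5.75 CPM in the other 4 libraries of that group. Kcnq1ot1 was at 90.3 CPM in KO PSC replicate 3, against 39.9 to 51.3 CPM. Snhg12 was at 6.64 CPM in the same replicate, against 2.95 to 3.94 CPM, and the 5 endothelial markers had their highest sum of all 10 libraries there (39.1 CPM). What sets these libraries apart was not tested.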

How the results depend on the processing

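Of 199 alternative fold changes of the 10 RNAs, 190 kept direction and side of the threshold, 8 changed sign and 1, that of Snhg11 with DESeq2 (1.71), passed the threshold. The sign changes were in Kcnq1ot1, with a log2 fold change near 0, and in H19 (0.15 with the macrophage score). Kcnq1ot1 was at -0.00022 with no filter, -0.011 with the length offset, -0.047 with the file-name number and -0.16 with voom, and at -0.23 to 0.11 without single libraries. edgeR called 0 genes, 1 with no filter and 0 to 4 without single libraries, DESeq2 called 127 and voom 3, and of the 10 RNAs DESeq2 called 1. Transcripts called were 0 to 2 without single libraries. Of 88 alternative main-transcript shares 3 changed sign, all of Snhg11, whose difference was 0.85 and 1.64 percentage points without WT PSC replicates 1 and 2 and 3.94 without KO PSC replicate 3, in a range of -6.61 to 3.94. Causes of these changes were not tested. A minimum count of 50 removes Snhg11, whose 16.1 to 154 reads limit its precision. No paired analysis was possible because the labels give the groups no shared replicate numbers.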
